A study of Mus musculus with 12 samples.

Results

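The core pluripotency factors described here are 10 genes that mark embryonic stem cells (ESCs): Pou5f1, Sox2, Sall4, Lin28a, Utf1, Dppa2, Dppa4, L1td1, Tdgf1 and Trim28. They were taken by symbol from the 24421 gene symbols of both count tables, and all 10 were found. The study measured mRNA by RNA-seq in mouse androgenetic haploid ESCs, cells with a single set of chromosomes that comes from sperm. It compared wild-type (WT) cells with cells carrying a knockout (KO) of Etl4, a gene that the series title ties to the stability of the haploid state. All 12 libraries had a C57BL/6 background. For the parental line OdG the WT cells gave 2 libraries, and so did each of 2 KO lines, here line 1 and line 2. For the parental line EG1, counted in a separate table, WT cells and the single KO line gave 3 libraries each. Each KO group is thus 1 line sequenced 2 or 3 times, and how the lines were edited is not described in the labels. No label ties the replicates to separate cultures, so the p-values measure the spread between libraries, which may be technical.

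ESCs hold their identity through a network in which OCT4 (the product of Pou5f1) and SOX2 bind DNA side by side and activate their own genes and many others. SALL4 works with them and with the histone deacetylase complex NuRD, while UTF1, DPPA2 and DPPA4 act on chromatin. LIN28A and L1TD1 bind RNA, TRIM28 silences retrotransposons and imprinted loci, and CRIPTO (from Tdgf1) is a cell surface co-receptor for the ligand NODAL.

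Total counts ran from 16110028 to 18774032 in OdG and from 17421260 to 19706599 in EG1, and levels below are in CPM, counts relative to library totals adjusted by edgeR's TMM factors across all 12 libraries. On that scale 1 CPM was worth 15.9 to 19.7 counts. Fold changes come from fits within each table. The targeted gene Etl4 fell to about the same extent in OdG KO (log2 fold change -0.98 ± 0.03, SE) and in EG1 KO (-0.99 ± 0.04), with 96.1 to 113 CPM left in the OdG KO libraries and 132 to 135 CPM left in the EG1 KO libraries. The defining ESC markers were present throughout: Pou5f1 stood at 1011 CPM or more and Sox2 at 596 CPM or more in every library, and the naive factor Nanog at 636 to 1464 CPM.

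Some markers of other cell types differed between OdG KO and OdG WT, and their part in the results below was not tested. The marker counts stand beside 29.4% of all tested genes higher and 30.5% lower in OdG KO. In EG1 KO these shares were 3.6% and 4.06%. The summed level of 6 neural ectoderm markers was 12 to 14.9 CPM in OdG WT and 40.6 to 43.8 CPM in the OdG KO libraries, with 2 of the 4 tested markers higher in OdG KO. Most of that sum was the neuronal tubulin Tubb3, and Neurod1 was at 0 in line 2. The 7 trophoblast markers summed to 189 to 190 CPM in OdG WT and 242 to 256 CPM in OdG KO, with 2 of 6 tested higher and 3 lower. Line 1 had 3 higher and 2 lower, beside 26.8% and 26.1% of all tested genes. Line 2 had 1 higher and 3 lower, beside 30% and 29.8%. The keratin gene Krt8 was higher in line 1 (log2 0.42 ± 0.04) and lower in line 2 (-0.87 ± 0.05). Tfap2c, which also has roles in germ cells, was at 0.38 CPM in OdG WT, 10.3 in line 1 and 111 in line 2. The 6 primitive streak and mesoderm markers summed to 76.5 to 83.1 CPM in OdG WT and 66.8 to 72.8 CPM in OdG KO, with 1 of 5 tested higher and 2 lower. Mesp1 was at 0 in OdG WT. The 9 primitive endoderm markers summed to 12.8 to 12.9 CPM in OdG WT. Line 1 summed to 7.48 to 8.7 CPM and line 2 to 10.2 to 11.1 CPM. Of 6 tested, 2 were lower in OdG KO, Gata6 (log2 -1.99 ± 0.24) and Pdgfra (-0.49 ± 0.2). The 8 fibroblast markers, which feeder cells would bring, summed to 14.7 to 17.7 CPM in OdG WT. The sum was 15 to 17.2 CPM in line 1 and 7.95 to 8.26 CPM in line 2. Of 3 tested, 1 was lower in OdG KO, Col1a1. It was lower in line 2 (log2 -2.01 ± 0.17) and not called in line 1 (0.13 ± 0.13). In EG1 the neural sum was 56 to 57.5 CPM in WT and 67.9 to 79.7 CPM in KO, with 1 of 3 tested markers called, Tubb3 (higher, log2 0.42 ± 0.06). The EG1 trophoblast sum was 95.2 to 99.5 CPM in WT and 99.4 to 102 in KO, with 1 of 4 tested called, Gata3 (higher, 1.14 ± 0.15). The EG1 fibroblast sum was 9.54 to 11.3 CPM in WT and 11.6 to 13.6 in KO, with 1 of 2 tested called, the collagen gene Col1a1 (higher, 0.58 ± 0.14). Of the fibroblast markers, Dcn, Lum and Postn were at 0 in EG1 WT and in EG1 KO, and Col3a1 in EG1 KO. The EG1 endoderm sum was 7.99 to 8.86 CPM in WT and 7.28 to 8.33 in KO, and the mesoderm sum 16.4 to 18.7 and 15.3 to 17.8.

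Of the 10 factors, 9 were higher and 1, Tdgf1, was lower in OdG KO than in OdG WT. The same division held in line 1 and in line 2, which share the OdG WT libraries as their reference. In EG1 KO 4 factors were higher (Lin28a, Utf1, L1td1 and Trim28), 1 was lower (Tdgf1), and 5 did not pass the test. The changes in EG1 were small, the largest being that of Lin28a at 0.45 on the log2 scale, against 1.57 for Utf1 in OdG. Calls are genes with an adjusted p under 0.05 in edgeR's quasi-likelihood test, and all 10 factors passed the filter on low counts in both tables.

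These counts have to be read against how many genes were called. In OdG KO 59.9% of 14413 tested genes were called, with 29.4% of tested genes higher and 30.5% lower. The background was 52.8% for line 1 (26.8% higher, 26.1% lower) and 59.9% for line 2 (30% higher, 29.8% lower). In EG1 it was 7.66% of 14016 genes, with 3.6% higher and 4.06% lower. The median log2 fold change of the 10 factors was 0.69 in OdG KO beside -0.01 over all tested genes, and 0.06 in EG1 KO beside 0. In absolute size the medians were 0.69 beside 0.28 in OdG KO and 0.12 beside 0.08 in EG1 KO. With a further minimum of 0.5 on the absolute log2 fold change, 6 factors were higher and 1 lower in OdG KO, where 23.4% of genes passed (7.94% higher, 15.5% lower). No factor reached that size in EG1 KO, where 1.73% of genes did (0.421% higher, 1.31% lower). In bulk libraries such as these, fewer cells of a type and less RNA per cell cannot be told apart.

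**Figure D1:**
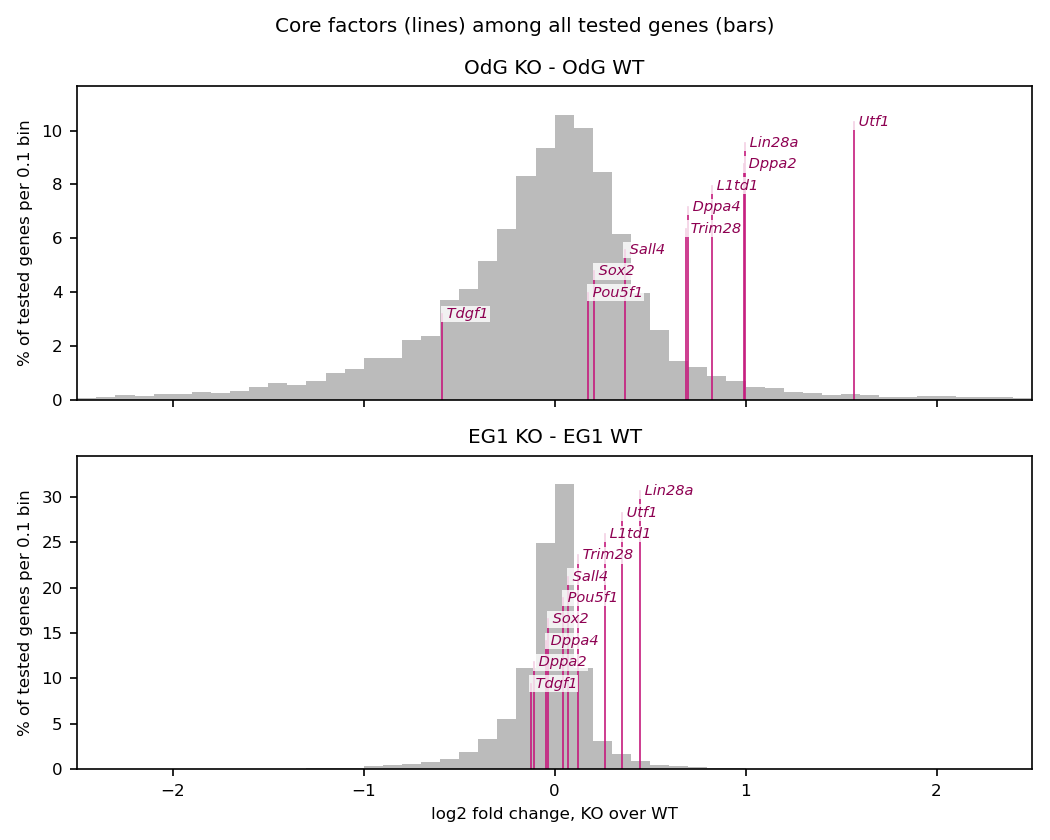
Log2 fold changes of the 10 core factors (vertical lines) over the distribution of all tested genes (bars, percent of genes per bin of 0.1), for OdG KO against OdG WT above and EG1 KO against EG1 WT below. In OdG KO 9 factors lie to the right of 0 and Tdgf1 to the left, and in EG1 KO Lin28a, Utf1 and L1td1 lie furthest to the right.

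By library rather than by test, every OdG KO library lay above every OdG WT library for 9 factors and below for Tdgf1, a separation seen in 55.4% of tested genes (26.6% above, 28.9% below). In EG1 the KO libraries lay above all WT libraries for 5 factors and below for 2, beside 25.1% of tested genes (12.7% above, 12.3% below). The factors separated in EG1 were the 5 called ones plus Sall4 above and Dppa2 below.

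**Figure D2:**
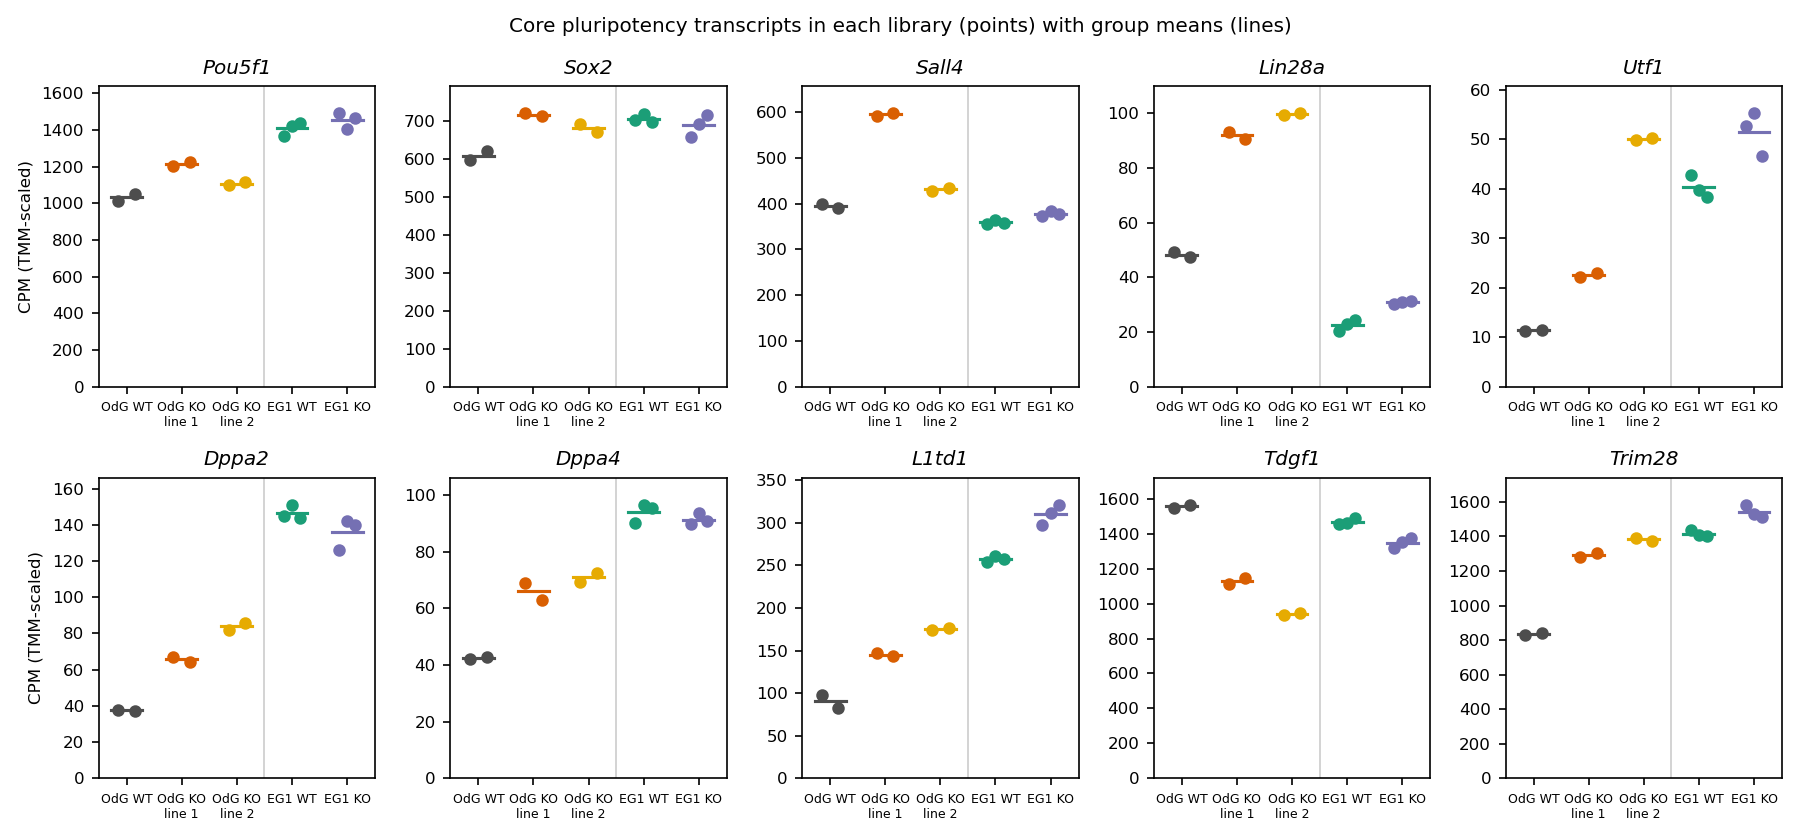
Level of each core factor in every library (points, TMM-scaled CPM, linear axis from 0) with group means (lines), OdG groups left and EG1 groups right of the grey line. OdG WT is the lowest group for 7 of the 10 factors and the highest for Tdgf1.

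Lin28a, Utf1, L1td1 and Trim28 were higher, and Tdgf1 lower, in each of the 3 KO lines against their own WT. Among the 13630 genes tested in both tables, 2.21% were higher and 2.18% lower in all 3 lines. Because these 5 genes carry the changes seen in both parental lines, the DNA just upstream of each is shown, taken from RefSeq (GRCm38.p6, the mm10 build) and cut where an annotated exon begins. For Trim28 the stretch precedes the RefSeq start but lies inside the span that GENCODE gives the gene, because a longer GENCODE transcript starts further upstream. RefSeq windows were matched for 7 of the 10 factors. Capitals mark matches, on either strand, to motifs of interest for this family: the octamer ATGCAAAT bound by OCT4, its shorter form ATGCAAA contained in it, the SOX core CATTGT, the GC box GGGCGG and the TATA box TATAAA.
Lin28a (chr4:134018842-134019066, minus strand, 225 bases): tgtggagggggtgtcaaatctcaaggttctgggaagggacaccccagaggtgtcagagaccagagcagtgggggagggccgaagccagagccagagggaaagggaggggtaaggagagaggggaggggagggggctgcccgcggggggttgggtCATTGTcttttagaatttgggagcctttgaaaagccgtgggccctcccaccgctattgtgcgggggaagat
Utf1 (chr7:139943606-139943788, plus strand, 183 bases): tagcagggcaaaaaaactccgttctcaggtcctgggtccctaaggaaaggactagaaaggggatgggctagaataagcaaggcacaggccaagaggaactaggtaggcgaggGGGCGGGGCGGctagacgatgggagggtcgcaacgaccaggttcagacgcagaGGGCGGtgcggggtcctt
L1td1 (chr4:98726504-98726733, plus strand, 230 bases): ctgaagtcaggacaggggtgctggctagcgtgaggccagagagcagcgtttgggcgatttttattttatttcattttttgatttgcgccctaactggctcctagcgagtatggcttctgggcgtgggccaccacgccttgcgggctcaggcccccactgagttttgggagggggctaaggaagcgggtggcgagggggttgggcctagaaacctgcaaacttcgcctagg
Trim28 (chr7:13023902-13024151, plus strand, 250 bases): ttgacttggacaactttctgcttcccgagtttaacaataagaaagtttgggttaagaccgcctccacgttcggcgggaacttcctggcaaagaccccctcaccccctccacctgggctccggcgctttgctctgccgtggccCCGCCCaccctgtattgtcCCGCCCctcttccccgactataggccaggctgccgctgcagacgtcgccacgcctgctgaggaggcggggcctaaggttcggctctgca
Tdgf1 (chr9:110946159-110946408, minus strand, 250 bases): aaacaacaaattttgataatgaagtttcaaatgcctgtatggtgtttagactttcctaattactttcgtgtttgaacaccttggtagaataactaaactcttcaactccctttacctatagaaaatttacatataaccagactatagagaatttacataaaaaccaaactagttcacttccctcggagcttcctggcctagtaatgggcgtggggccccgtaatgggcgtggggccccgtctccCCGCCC

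Among these 5 sequences, Lin28a holds a SOX core starting 96 bases before its RefSeq start. Utf1 holds GC boxes 138, 133 and 85 bases before the start, the first pair overlapping by a base. Trim28 holds GC boxes on the minus strand of the gene at 108 and 89 bases, and Tdgf1 holds 1 on the minus strand at 6 bases. The L1td1 stretch holds none of the motifs searched, and the octamer and TATA box letters occur in none of the 5. Over 32851 RefSeq windows of 250 bases, 32.7% hold a GC box, 10.7% a SOX core, 12.4% a TATA box, 4.12% the shorter octamer form and 1.6% the octamer. The stretches of Lin28a, Utf1 and L1td1 are shorter than that because of the exon boundary. The matches are descriptions of letters and do not show that a factor binds there.

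Pou5f1, Sox2 and Sall4, the DNA-binding core, changed least among the factors that rose in OdG and did not pass the test in EG1. Pou5f1 (chr17:35506018-35510772) encodes OCT4. It held 1011 and 1052 CPM in OdG WT, 1205 and 1223 in line 1, and 1100 and 1114 in line 2. Every KO library was above both WT libraries, and line 2 lay between WT and line 1. Its log2 fold change was 0.24 ± 0.03 in line 1 (SE, edgeR adjusted p = 1e-06) and 0.11 ± 0.03 in line 2 (edgeR adjusted p = 0.0019), or 18% and 8.02% above WT. In EG1 the WT libraries held 1366, 1423 and 1440 CPM and the KO libraries 1490, 1404 and 1467. The EG1 groups overlapped, with a log2 difference of 0.04 (95% interval -0.02 to 0.1, edgeR adjusted p = 0.43). Of all tested genes, 30.7% had a rise in OdG KO at least as large as that of Pou5f1.

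Sox2 (chr3:34650405-34652461), the partner of OCT4, overlaps the span of the long noncoding RNA gene Sox2ot on the same strand. Whether their exons overlap, and so could share reads, was not tested. Sox2 held 596 and 620 CPM in OdG WT, 719 and 711 in line 1, and 691 and 671 in line 2. The KO libraries were all above WT and the KO lines differed little from each other. Relative to WT, Sox2 rose by 0.24 ± 0.03 (log2) in line 1 (edgeR adjusted p = 4.2e-06) and 0.17 ± 0.03 in line 2 (edgeR adjusted p = 0.00011). EG1 WT held 701, 716 and 695 CPM and EG1 KO 658, 691 and 715. These EG1 libraries overlapped, at a log2 difference of -0.03 (95% interval -0.1 to 0.03, edgeR adjusted p = 0.59).

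Sall4 (chr2:168748332-168767943), a zinc finger factor that recruits NuRD, rose more in line 1 than in line 2. It held 399 and 390 CPM in OdG WT, 592 and 597 in line 1, and 428 and 435 in line 2. Line 1 stood well above both other groups, and line 2 stood just above WT. The log2 fold change was 0.60 ± 0.03 in line 1 (edgeR adjusted p = 4.3e-11) and 0.14 ± 0.03 in line 2 (edgeR adjusted p = 0.00087). When the 4 OdG KO libraries were fitted as 1 group, so that the spread between lines entered the error, the rise of Sall4 did not pass the test (log2 0.39, edgeR adjusted p = 0.098). The other 9 factors kept their calls in that fit, in which 32% of genes were called. EG1 WT held 355, 365 and 358 CPM and EG1 KO 373, 384 and 377. The EG1 KO libraries were all above WT, but the log2 difference of 0.07 did not pass the test (95% interval 0 to 0.14, edgeR adjusted p = 0.2).

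The partners of these factors were described by lists. Over all tested genes, 29.4% were higher and 30.5% lower in OdG KO, and 7.66% were called in EG1 KO. Of 12 listed partners of SALL4, which were NuRD subunits and the SALL4 paralogue Sall1, 9 were higher and 1 lower in OdG KO. The median log2 fold change was 0.25 beside -0.01 over all genes. The higher genes included Sall1 (0.89 ± 0.08), the remodeller Chd4 (0.44 ± 0.03), Mta2 (0.41 ± 0.03) and the deacetylases Hdac2 (0.43 ± 0.04) and Hdac1 (0.36 ± 0.03). In EG1 KO 1 of the 12 was called, the histone-binding subunit Rbbp7 (0.14 ± 0.03, edgeR adjusted p = 0.0042). Of 10 subunits of BAF-type remodelling complexes, most of them part of esBAF, 8 were higher and 1 lower in OdG KO (median 0.29). The DNA-binding subunit Arid1a led them (0.63 ± 0.03). In EG1 KO the 10 subunits lay between -0.03 and 0.08, with 0 called by edgeR or by DESeq2 and 0 at an unadjusted p under 0.05.

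Family relatives of OCT4, SOX2 and SALL4, many of them expressed in other tissues, were also counted. Sall1 was counted with the SALL4 partners above and not here. Of 9 tested, 3 were higher and 1 lower in OdG KO (median 0.15), beside 29.4% and 30.5% of all tested genes. Line 1 had 1 higher and 3 lower (median -0.32), beside 26.8% and 26.1%. Line 2 had 4 higher and 0 lower by edgeR (median 0.29), beside 30% and 29.8%. In line 2 there were also 0 lower by DESeq2 or at an unadjusted p under 0.05. Sox3, a neural relative of Sox2, was 2.67 ± 0.18 higher on the log2 scale in line 2 than in line 1 (edgeR adjusted p = 2.6e-09). In EG1 KO 1 of the 9 was called, beside 7.66% of all tested genes. It was Sall3, a paralogue of Sall4 (0.45 ± 0.07, edgeR adjusted p = 8e-05), which was also higher in OdG KO (1.25 ± 0.16).

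Of 15 listed naive pluripotency factors, which sustain the ground state together with the core, all 15 were higher in OdG KO (median 0.47). DESeq2 called 14 of them. By edgeR, 14 were higher in line 1 and 13 in line 2, beside 26.8% and 30% of all tested genes. Over all tested genes, 29.4% were higher and 30.5% lower in OdG KO, and 7.66% were called in EG1 KO. Nanog rose by 0.58 ± 0.03, the nuclear receptor Nr0b1 by 0.75 ± 0.03, Klf5 by 0.76 ± 0.04 and the F-box gene Fbxo15 by 0.76 ± 0.03. In EG1 KO 1 of the 15 was called, Zfp42, which encodes the marker REX1 (0.14 ± 0.04, edgeR adjusted p = 0.01), and the median was 0.01. Formative and primed markers, which come on as cells leave the naive state, were mixed: 4 of 10 tested were higher and 1 lower in OdG KO. The de novo DNA methyltransferase Dnmt3b (1.06 ± 0.04), Foxd3 (2.12 ± 0.09) and Etv4 (1.78 ± 0.12) were higher and the Wnt effector Lef1 was lower (-0.66 ± 0.04). Dnmt3b was the 1 called gene of this list in EG1 KO (0.30 ± 0.04, edgeR adjusted p = 8.7e-06).

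Utf1 (chr7:139943789-139945112) encodes a chromatin protein that is switched on by OCT4 and SOX2 in ESCs. It held 11.3 and 11.5 CPM in OdG WT (196 and 195 counts), 22.1 and 22.9 in line 1, and 49.9 and 50.3 in line 2. The 3 groups were separate and the libraries of a group lay close together. The fold change was 1.98 in line 1 (log2 0.99 ± 0.09, edgeR adjusted p = 6.6e-08) and 4.42 in line 2 (log2 2.15 ± 0.08, edgeR adjusted p = 4.1e-13). EG1 WT held 42.7, 39.8 and 38.4 CPM and EG1 KO 52.6, 55.2 and 46.5. The EG1 groups did not overlap, at a log2 fold change of 0.35 ± 0.06 (edgeR adjusted p = 0.00018). EG1 WT was already above line 1 of OdG. A rise as large as that of Utf1 was found in 1.17% of tested genes in OdG KO.

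Dppa2 (chr16:48303908-48319723) and Dppa4 (chr16:48283733-48294237) are neighbours, and their products bind chromatin as a pair and keep developmental promoters free of DNA methylation. Dppa2 held 37.8 and 37.4 CPM in OdG WT, 67.2 and 64.4 in line 1, and 82.1 and 86 in line 2. The OdG groups were separate and line 2 was highest. On the log2 scale Dppa2 rose by 0.81 ± 0.06 in line 1 (edgeR adjusted p = 2.1e-09) and 1.17 ± 0.06 in line 2 (edgeR adjusted p = 7.3e-12). EG1 WT held 145, 151 and 144 CPM and EG1 KO 126, 142 and 140. Here the KO libraries lay below WT, although the log2 difference of -0.11 did not pass the test (95% interval -0.19 to -0.02, edgeR adjusted p = 0.11).

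Dppa4 held 42.1 and 42.8 CPM in OdG WT, 68.9 and 63 in line 1, and 69.2 and 72.6 in line 2. Both KO lines were above WT and close to each other. Its log2 fold change was 0.64 ± 0.06 in line 1 (edgeR adjusted p = 9.1e-08) and 0.75 ± 0.06 in line 2 (edgeR adjusted p = 7.2e-09). EG1 WT held 90.1, 96.5 and 95.5 CPM and EG1 KO 89.7, 93.5 and 90.7. The EG1 groups overlapped (log2 difference -0.04, 95% interval -0.13 to 0.04, edgeR adjusted p = 0.61).

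DPPA2 and DPPA4 are known to activate Dux and, through it, genes of the 2-cell embryo such as the Zscan4 cluster. Of 10 such genes listed, 8 were tested in OdG and all 8 were higher in OdG KO, with a median of 1.67. Over all tested genes, 29.4% were higher in OdG KO, 26.8% in line 1 and 30% in line 2. The lines differed: in line 2 all 8 were higher (median 2.61), while in line 1 the median was 0.79 with 0 of 8 called by edgeR or by DESeq2 and 3 of 8 at an unadjusted p under 0.05. The difference between lines passed the test for all 8, beside 37.8% of all tested genes. In EG1 KO all 9 tested genes of the list were lower, with a median of -0.91, beside 4.06% of all tested genes lower. The difference of effects between the parental lines passed the test for all 9, beside 39.8% of all tested genes. Zscan4d rose by 1.48 ± 0.21 in OdG KO and changed by -0.91 ± 0.08 in EG1 KO (edgeR adjusted p = 1e-09). Its level was 1.37 CPM in OdG WT, 7.44 in line 2, 29.7 in EG1 WT and 15.9 in EG1 KO. The other listed genes were lower still in OdG WT, at 0 to 0.963 CPM on average. Few OdG WT counts thus lie behind the OdG fold changes of this list. Zscan4, Usp17l and Tcstv genes are near-identical copies whose reads may be split or shared by the counting, so single genes of these families are uncertain.

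Lin28a (chr4:134003330-134018841) encodes an RNA-binding protein that blocks the maturation of let-7 microRNAs. It held 49.2 and 47.3 CPM in OdG WT, 93.3 and 90.5 in line 1, and 99.5 and 100 in line 2. Both KO lines were far above WT. The fold change was 1.91 in line 1 (log2 0.93 ± 0.05, edgeR adjusted p = 4.5e-11) and 2.08 in line 2 (log2 1.06 ± 0.05, edgeR adjusted p = 4.6e-12). EG1 WT held 20.5, 23 and 24.4 CPM and EG1 KO 30.3, 31.1 and 31.5. The EG1 groups did not overlap, and Lin28a changed most of the 10 factors there (log2 0.45 ± 0.07, edgeR adjusted p = 3.4e-05). In EG1 KO 1.79% of tested genes rose as much, and in OdG KO 2.98%.

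Of 14 tested genes of the LIN28 and let-7 pathway, 8 were higher and 3 lower in OdG KO, with a median of 0.30. Over all tested genes, 29.4% were higher and 30.5% lower in OdG KO, and 7.66% were called in EG1 KO. Among the higher pathway genes were the let-7 target Hmga2 (0.46 ± 0.04), the RNA-binding protein gene Igf2bp1 (0.43 ± 0.03), the microRNA exporter Xpo5 (0.44 ± 0.04) and Trim71 (0.45 ± 0.04), itself a let-7 target. The 3 lower ones were Zcchc11 (-0.22 ± 0.04), the Igf2bp1 relative Igf2bp2 (-0.16 ± 0.04) and the Hmga2 relative Hmga1 (-0.42 ± 0.14). In EG1 KO 1 of the 14 was called, again Hmga2, which was higher by 0.44 ± 0.08 (edgeR adjusted p = 0.00021), while the median was -0.02. Mature let-7 was not measured in these mRNA libraries.

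L1td1 (chr4:98726734-98738480), an RNA-binding protein gene derived from a retrotransposon, held 97.6 and 83.1 CPM in OdG WT, 147 and 143 in line 1, and 174 and 176 in line 2. The WT libraries were further apart than those of either KO line, and still lay below all of them. The log2 fold change was 0.69 ± 0.06 in line 1 (edgeR adjusted p = 1.4e-08) and 0.96 ± 0.05 in line 2 (edgeR adjusted p = 8.9e-11). EG1 WT held 254, 261 and 258 CPM and EG1 KO 297, 312 and 321. Every EG1 KO library was above WT, with a log2 fold change of 0.27 ± 0.04 (edgeR adjusted p = 1.9e-06).

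Trim28 (chr7:12999114-13031035) encodes KAP1, the co-repressor that KRAB zinc finger proteins bring to DNA. The span of Trim28 overlaps Zbtb45 on the opposite strand, and whether their exons overlap was not tested. Trim28 held 827 and 841 CPM in OdG WT, 1279 and 1303 in line 1, and 1391 and 1375 in line 2. Both KO lines were above WT by more than the spread of any group. Trim28 rose by 0.63 ± 0.03 (log2) in line 1 (edgeR adjusted p = 1.9e-12) and 0.74 ± 0.03 in line 2 (edgeR adjusted p = 1.5e-13). EG1 WT held 1438, 1407 and 1402 CPM and EG1 KO 1583, 1532 and 1510. The EG1 difference was small but without overlap (log2 0.12 ± 0.03, edgeR adjusted p = 0.0039).

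Of 12 partners in TRIM28 silencing, 10 were higher in OdG KO, with a median of 0.28. Over all tested genes, 29.4% were higher in OdG KO, and 7.66% were called in EG1 KO. The imprint-guarding zinc finger gene Zfp57 was higher by 0.63 ± 0.03, Atrx by 0.54 ± 0.03, the SETDB1 partner Atf7ip by 0.88 ± 0.06 and Uhrf1 by 0.24 ± 0.02. In EG1 KO the 12 lay between -0.06 and 0.12, with 0 called by edgeR or by DESeq2 and 1 at an unadjusted p under 0.05.

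Tdgf1 (chr9:110939603-110946158) was the factor that went the other way. It held 1549 and 1565 CPM in OdG WT, 1112 and 1147 in line 1, and 935 and 946 in line 2. The groups were separate, with line 2 lowest. The log2 fold change was -0.46 ± 0.03 in line 1 (edgeR adjusted p = 1.3e-10) and -0.72 ± 0.03 in line 2 (edgeR adjusted p = 2.2e-13). Relative to WT, the level fell by 27.3% in line 1 and fell by 39.2% in line 2. EG1 WT held 1457, 1462 and 1487 CPM and EG1 KO 1318, 1353 and 1374. The EG1 KO libraries were all below WT (log2 -0.12 ± 0.03, edgeR adjusted p = 0.0026). The annotation holds 2 processed pseudogenes of Tdgf1, and how reads shared with them were counted is not given in the sources used here.

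Tdgf1 serves NODAL signalling, and the other genes of that pathway were called in both directions, as were genes at large. Of 15 tested, 7 were higher and 3 lower in OdG KO, with a median of 0.03. Over all tested genes, 29.4% were higher and 30.5% lower there. The NODAL targets and antagonists Lefty1 (1.40 ± 0.10) and Lefty2 (1.03 ± 0.04) were higher, as was the inhibitory Smad7 (0.41 ± 0.04), and the signal transducer Smad3 was lower (-0.88 ± 0.06). In EG1 KO 1 gene was higher and 3 were lower, beside 3.6% and 4.06% of all tested genes. Lefty1 (-0.35 ± 0.06, edgeR adjusted p = 0.00024), Lefty2 (-0.15 ± 0.04, edgeR adjusted p = 0.017) and the repressor Skil (-0.20 ± 0.04, edgeR adjusted p = 0.002) were the lower ones, and the proprotein convertase Pcsk6 was higher (0.12 ± 0.03, edgeR adjusted p = 0.021). The KO effects on Lefty1 and Lefty2 were opposite in sign in the parental lines and differed by 1.74 ± 0.11 (edgeR adjusted p = 1.5e-13) and 1.17 ± 0.06 (edgeR adjusted p = 8.8e-16), whereas Tdgf1 was lower in both.

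**Figure D3:**
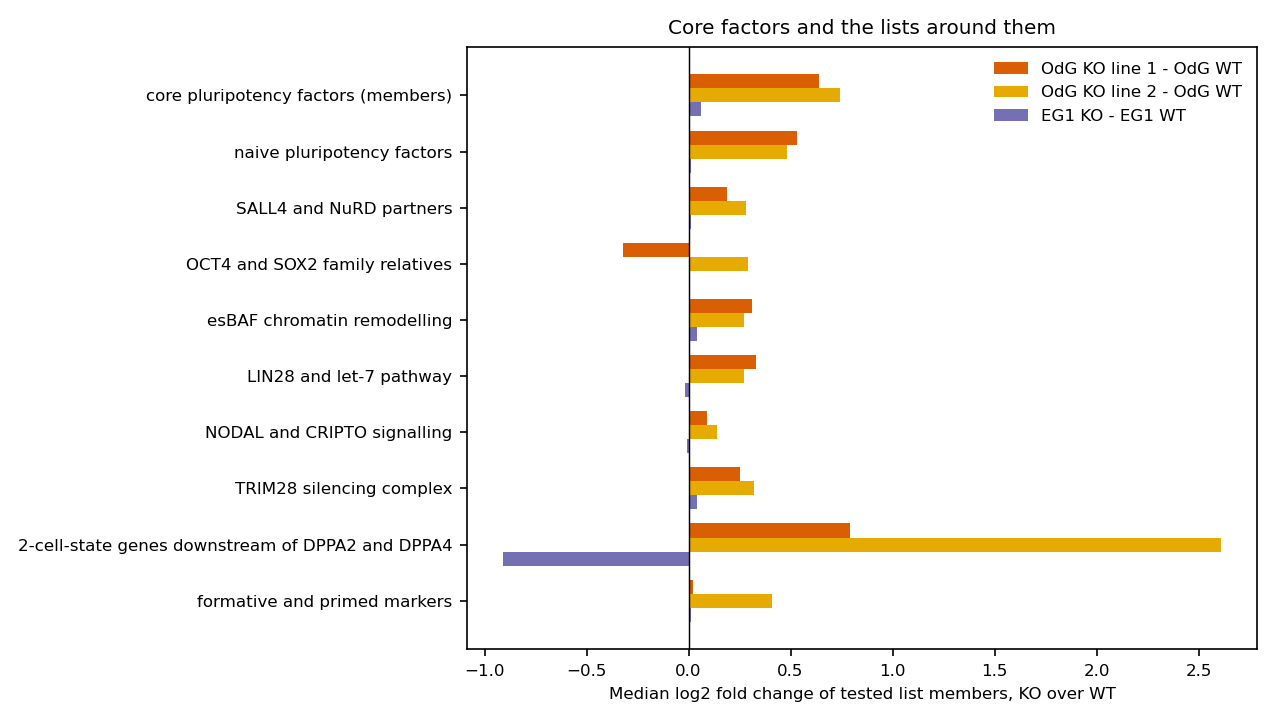
Median log2 fold change of the tested members of each list (bars), for OdG KO line 1, OdG KO line 2 and EG1 KO, each against its own WT; OdG lines share their WT libraries. Most lists stand above 0 in both OdG lines and near 0 in EG1, and the 2-cell-state genes stand at 2.61 in line 2 and -0.91 in EG1.

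The KO lines of OdG were compared directly, since their separate tests against a shared WT cannot show that they differ. Of the 10 factors, 5 were higher and 3 lower in line 2 than in line 1, beside 37.8% of all tested genes called (18.6% higher, 19.2% lower). The largest difference was that of Utf1, 2.23 times as high in line 2 (log2 1.16 ± 0.07, edgeR adjusted p = 8.7e-10). Dppa2 (0.36 ± 0.05) and L1td1 (0.27 ± 0.05) were higher in line 2 as well. Sall4 (-0.46 ± 0.03), Tdgf1 (-0.26 ± 0.03) and Pou5f1 (-0.13 ± 0.03) were lower in line 2. The small differences of Lin28a (0.12 ± 0.04, edgeR adjusted p = 0.033) and Trim28 (0.10 ± 0.03, edgeR adjusted p = 0.0034) lost their calls when single libraries of either line were left out. Without line 1 replicate 1 or line 2 replicate 1, 3 factors were higher in place of 5. Sox2 (95% interval -0.13 to 0) and Dppa4 (-0.01 to 0.23) did not pass the test.

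**Figure D4:**
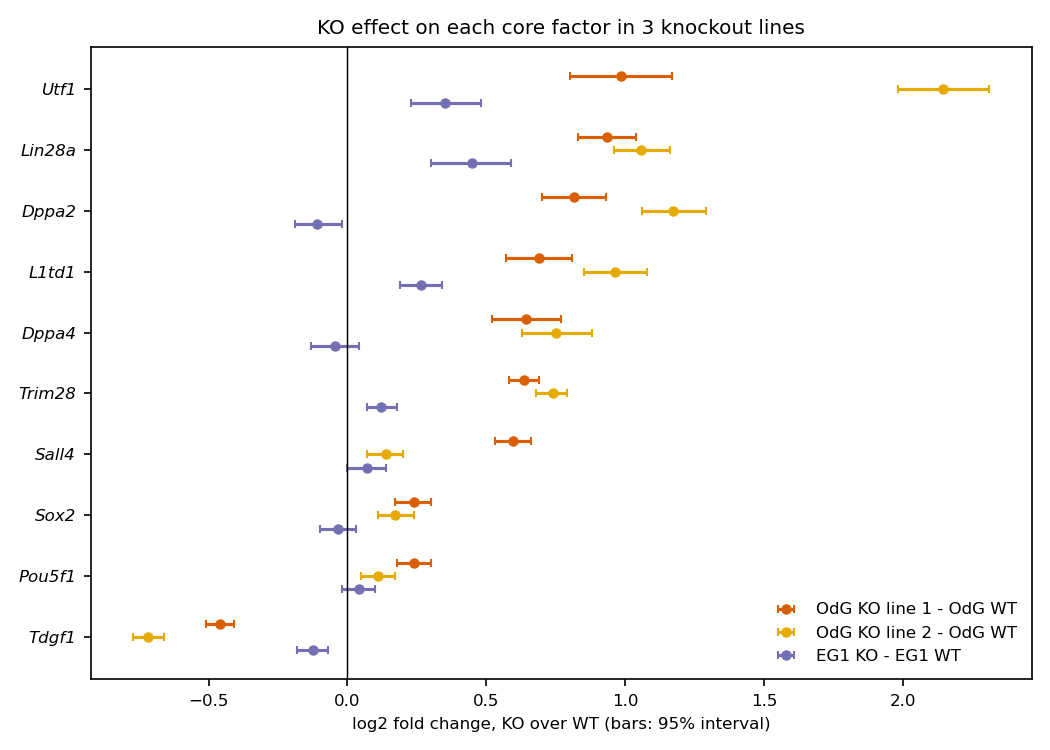
Log2 fold change of each core factor against its own WT with 95% intervals (bars), for OdG KO line 1, OdG KO line 2 and EG1 KO. Utf1 in line 2 stands furthest above 0 at 2.15, Sall4 is separated between the OdG lines (0.60 and 0.14), and the EG1 values lie between -0.12 and 0.45.

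A fit over all 12 libraries tested whether the KO effect was the same in OdG and EG1. It passed for all 10 factors: the effect was more positive in OdG for 9 and more negative for Tdgf1, beside 39.8% of 14977 tested genes called (20.2% more positive, 19.5% more negative). The difference of effects was 1.21 ± 0.11 for Utf1, 1.09 ± 0.07 for Dppa2 and 0.73 ± 0.07 for Dppa4. It was smallest for Pou5f1 at 0.12 ± 0.04 (edgeR adjusted p = 0.014), which no longer passed without OdG WT replicate 1 (0.10, edgeR adjusted p = 0.082). For Tdgf1 it was -0.47 ± 0.04 (edgeR adjusted p = 9.2e-12). Etl4 itself showed no such difference at this precision (0.00, 95% interval -0.1 to 0.1). The error of this fit is the spread between libraries, and the spread between KO lines does not enter it. For Sall4 the log2 fold change was 0.60 in line 1, 0.14 in line 2 and 0.07 in EG1 KO. EG1 has a single KO line, so differences between parental lines and between KO lines cannot be told apart here.

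Levels across the 5 groups put the OdG effect in context. OdG WT was the lowest group for 7 of the 10 factors, and EG1 KO the highest for 4. For Pou5f1, Sox2, Utf1, Dppa2, Dppa4, L1td1 and Trim28 the OdG KO lines lay above OdG WT on the side of EG1 WT. Line 2 reached the level of EG1 KO for Utf1 (50.1 and 51.4 CPM, libraries overlapping). Tdgf1 fell from 1557 CPM in OdG WT to 1130 in line 1 and 941 in line 2, past EG1 WT at 1469. Dppa2 stayed below EG1 in both lines, at 65.8 and 84 CPM against 147 in EG1 WT. Sall4 and Lin28a had the reverse order, with EG1 WT lowest (359 and 22.6 CPM) and the OdG KO lines highest. Parental line and count table cannot be told apart in these levels. Per kilobase of exon, Pou5f1 (758 CPM per kb in OdG WT, 1040 in EG1 WT) and Tdgf1 (806 and 760) were the most abundant of the 10, and Utf1 (9.29) in OdG WT and Lin28a (6.45) in EG1 WT the least.

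Within their tables, the factors moved alike to different degrees over the 12 libraries, and no clustering was run. After log2 levels were centred on each table's mean, Lin28a, Utf1, Dppa2, Dppa4, L1td1 and Trim28 had pairwise Pearson correlations of 0.819 to 0.975, and Tdgf1 ran against each of them (-0.922 to -0.975). Sall4 was nearest to Pou5f1 (0.888) and far from Utf1 (0.179). Sox2 was nearest to Dppa4 (0.829) and stood at 0.74 with Pou5f1. Pou5f1 in turn reached 0.724 with Lin28a and 0.705 with Trim28. These values describe 12 libraries in 5 groups and rest largely on the differences between OdG groups. Among 8871 genes with at least 10 CPM on average in each table, the pattern most like Trim28 was that of Ruvbl1 (0.996) and then Bop1 (0.995). Tdgf1 was closest to Kdelr3 (0.998) and Slc2a3 (0.996), and Utf1 to Arl14epl (0.994) and Nefm (0.991). L1td1 was closest to Slc38a2 (0.991) and Kat6a (0.985), Dppa2 to Pdpk1 (0.99) and Kdm5b (0.989), and Dppa4 to Cyb5b (0.986) and Noc3l (0.984). Lin28a was closest to Tars (0.988) and Cct6a (0.985), Sall4 to Nod1 (0.983) and Sulf1 (0.98), Sox2 to Ppat (0.978) and Dstn (0.969), and Pou5f1 to Fbl (0.976) and Isy1 (0.964).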

How the data were processed

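RNA was extracted with Trizol and libraries were made with a NEBNext Ultra kit, per the labels' protocols. The tools listed are HISAT2 2.1.0, featureCounts 1.6.4, CASAVA and DESeq2, and the build is mm10, per the submitters' processing notes. None of the sources used here gives the annotation, any filter or the strand setting. Raw counts per gene symbol were deposited in 2 tables, with 0 columns unmatched to a sample. The EG1 KO columns were matched by the table that each sample's description names.

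Counts were fitted with edgeR 4.0.16 in R 4.3.3 (filterByExpr, TMM, quasi-likelihood test, 1 mean per group, two-sided, Benjamini-Hochberg over all tested genes, threshold 0.05). OdG KO is the mean of both lines on the log scale. SE is the log2 fold change over the root of F. DESeq2 1.42.0 and the other alternatives are in the closing section. Depth limits precision at low levels: 1 TMM-scaled CPM is 15.9 to 19.7 counts. The biological coefficient of variation was 3.34% (OdG) and 3.53% (EG1). Chi-square over degrees of freedom between replicates was 1.81 to 3.7, above sampling noise.

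All 10 factors are named in every comparison. Of each other list up to 4 genes with the smallest adjusted p are named. Genes named beyond that were chosen after their values were seen (Nanog, Tfap2c, Tubb3, Zscan4d levels, Sox3, Sall1, Zcchc11, Igf2bp2 and Hmga1). The members and lists were chosen with earlier results of these data known. Positions are from GENCODE vM21. For the nearest patterns, log2 of CPM + 0.5 was used, and clone-style symbols were passed over.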

Additional observations from a re-analysis of the deposited data

Results flagged for a closer look

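The following differences between groups passed a test of the difference itself and are given as log2 values. Between the OdG KO lines, line 2 against line 1, the values were -0.13 for Pou5f1, -0.46 for Sall4, 0.12 for Lin28a, 1.16 for Utf1, 0.36 for Dppa2, 0.27 for L1td1, -0.26 for Tdgf1 and 0.1 for Trim28. Between parental lines, the KO effect in OdG minus that in EG1 was 0.12 for Pou5f1, 0.23 for Sox2, 0.29 for Sall4 and 0.54 for Lin28a. It was 1.21 for Utf1, 1.09 for Dppa2, 0.73 for Dppa4, 0.55 for L1td1, -0.47 for Tdgf1 and 0.56 for Trim28. Sall4 and Utf1 moved in opposite directions between the OdG KO lines while both were above OdG WT in each line.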

How the results depend on the processing

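The alternatives were DESeq2, other size factors, total-count scaling, no filter on low counts, a replicate block and leaving out each library. No log2 fold change of a core factor changed sign. Against WT, the calls held in 119 of 120 values for OdG KO, 110 of 110 for line 1, 110 of 110 for line 2 and 110 of 110 for EG1 KO. The exception was Sall4 with the OdG KO libraries as 1 group. For the interaction 169 of 170 held. Between the OdG lines 100 of 110 held, 8 were weaker and 2 stronger. Lin28a there had an edgeR adjusted p of 0.052 without a filter and 0.083 to 0.24 without single libraries of either line, and 0.23 in DESeq2. Trim28 had 0.098 without line 1 replicate 1 and 0.052 without line 2 replicate 1, and Sox2 passed without OdG WT replicate 1 (0.0079) or 2 (0.0066). The count of factors higher in line 2 ran from 3 to 5 over the left-out libraries. With a minimum log2 change of 0.5, EG1 KO had 0 factors higher and 0 lower, by size and not by test.

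Counts over all genes moved more. With the OdG KO libraries as 1 group, 2378 genes were higher and 2231 lower in place of 4241 and 4397. DESeq2 called 2427 lower in line 1 (3757 in edgeR), 1542 higher and 1688 lower between the lines (2680 and 2774) and 309 lower in EG1 (569). In EG1 332 were higher under total-count scaling, and 257, 283 and 293 without WT replicate 1, 2 or 3, in place of 505. Without WT replicate 3, 365 were lower.

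Same-numbered libraries showed no clear shared deviation (correlations -0.0591 to 0.0821 over 9398 genes). With 2 libraries in each OdG group, the deviations in a group mirror each other, so this check cannot exclude pairing. With the replicate block 9 factors were higher and 1 lower in OdG KO, 4 and 1 in EG1 KO and 5 and 3 between the lines, as without it. Low counts limit Utf1 in OdG WT, at 195 and 196 counts.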
